A study of Mus musculus with 16 samples.

Results

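Aminoacyl-tRNA synthetases were followed through the growth of mouse oocytes as a family of 36 genes, 20 for the enzymes of the cytosol and 16 for those of the mitochondrion, out of 25965 genes with a value for RNA. Within the family the members were taken by name, from a list of synthetase symbols, while the family itself was picked with earlier results of these data known, and a symbol ending in 2 marks the mitochondrial form. The oocytes came from wild-type C57BL/6 mice (C57BL/6Babr in the methods of the study), those of the growing classes from pre-pubertal ovaries, and were sorted by diameter with no treatment. Per those methods the larger classes came from older mice, in age ranges that partly overlap, and GV oocytes from the oldest, so size cannot be told apart from age. RNA-seq was made in duplicate, as libraries A and B, from a class of 10–30 μm and from the larger classes of 40–45 μm, of 50–55 μm and of 60–65 μm in diameter, and 1 library came from germinal vesicle (GV) oocytes, the fully grown stage. DNA methylation was measured by reduced representation bisulphite sequencing (RRBS), which covers mostly GC-rich DNA, in duplicate in the 3 larger classes, and by post-bisulphite adapter tagging (PBAT), which covers the whole genome, in 1 library at 60–65 μm. Each library was a pool of oocytes, and nothing states that A and B were separate collections, so a p-value below measures only the spread between these libraries, which may be technical.

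Each aminoacyl-tRNA synthetase joins an amino acid to its transfer RNA, the step that fixes which amino acid a codon brings into a protein. Most amino acids have a cytosolic and a mitochondrial enzyme encoded by separate nuclear genes, whereas Gars and Kars each encode both forms of the glycyl and lysyl enzymes and Eprs encodes the glutamyl and prolyl activities of the cytosol in a single chain. Several cytosolic enzymes sit together in the multisynthetase complex, and in somatic cells many cytosolic synthetase genes are induced by ATF4, the transcription factor of the amino acid starvation response, through C/EBP-ATF response elements. The growing oocyte accumulates RNA, ribosomes and mitochondria for use after fertilisation, so it charges transfer RNA for its own growth and stores messages for later.

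The sequence just before and after the start of 27 members (13 cytosolic and 14 mitochondrial, Mars being listed there as Mars1) was available from RefSeq on build GRCm38.p6, as windows of 300 bases from 250 before to 50 after the start, which need not be the start used in oocytes. The windows below are shown because they belong to the member that rose most (Iars) and its mitochondrial partner that fell (Iars2), to a weaker riser (Aars), to a member that fell (Gars) and to the member with the most methylated start (Tars). They lie at chr13:49681880-49682179, plus strand (Iars), at chr1:185329352-185329651, minus strand (Iars2), at chr8:111033592-111033891, plus strand (Aars), at chr6:55037751-55038050, plus strand (Gars) and at chr15:11399609-11399908, minus strand (Tars), and each is written 5′ to 3′ along its gene.
Iars: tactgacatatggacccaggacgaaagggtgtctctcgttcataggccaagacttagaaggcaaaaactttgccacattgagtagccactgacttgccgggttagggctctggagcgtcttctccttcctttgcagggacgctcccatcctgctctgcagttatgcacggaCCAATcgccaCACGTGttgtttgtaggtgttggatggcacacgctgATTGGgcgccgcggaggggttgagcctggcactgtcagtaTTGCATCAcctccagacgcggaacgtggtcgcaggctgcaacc
Iars2: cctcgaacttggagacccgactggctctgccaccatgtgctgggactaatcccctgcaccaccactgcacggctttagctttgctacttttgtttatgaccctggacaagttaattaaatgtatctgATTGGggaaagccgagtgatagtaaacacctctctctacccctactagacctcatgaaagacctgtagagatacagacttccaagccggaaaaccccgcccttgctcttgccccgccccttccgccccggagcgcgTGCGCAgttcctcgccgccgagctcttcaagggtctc
Aars: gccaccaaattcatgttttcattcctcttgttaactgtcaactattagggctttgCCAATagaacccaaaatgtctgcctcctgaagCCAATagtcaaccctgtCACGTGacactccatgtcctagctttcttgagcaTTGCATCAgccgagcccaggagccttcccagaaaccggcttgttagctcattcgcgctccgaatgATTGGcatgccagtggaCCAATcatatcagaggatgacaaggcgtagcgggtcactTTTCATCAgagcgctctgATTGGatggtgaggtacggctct
Gars: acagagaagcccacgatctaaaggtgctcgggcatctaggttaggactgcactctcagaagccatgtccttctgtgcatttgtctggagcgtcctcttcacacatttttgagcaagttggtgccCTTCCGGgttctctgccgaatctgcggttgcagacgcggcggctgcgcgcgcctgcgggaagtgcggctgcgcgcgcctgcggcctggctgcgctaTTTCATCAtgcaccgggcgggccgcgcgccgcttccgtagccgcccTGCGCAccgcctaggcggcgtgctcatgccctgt
Tars: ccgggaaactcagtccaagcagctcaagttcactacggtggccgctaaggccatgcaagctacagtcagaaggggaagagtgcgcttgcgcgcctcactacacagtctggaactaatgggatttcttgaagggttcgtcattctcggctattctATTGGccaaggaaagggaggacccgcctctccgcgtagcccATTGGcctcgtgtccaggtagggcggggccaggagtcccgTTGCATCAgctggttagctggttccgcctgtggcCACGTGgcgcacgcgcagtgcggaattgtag
Capitals mark matches, on either strand, to the C/EBP-ATF response element TGATGNAA, the E-box CACGTG, the ETS motif CCGGAAG, the NRF1 motif TGCGCA, the CCAAT box CCAAT or the TATA box TATAAA, and in the windows of the members no matches overlapped.

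TGATGNAA was found in 5 of the 13 cytosolic windows, those of Aars, Gars, Iars, Tars and Yars, and in 0 of the 14 mitochondrial ones, while 4.1% of 27025 mouse promoters of the same length held it. Counting the start as position 1, Aars carried 2 copies, from positions -112 and 10, and the single copies of Iars, Gars, Tars and Yars began at 8, -30, -15 and 4. Of the 5 genes with the element, Iars and Aars were called higher over growth, Gars was called lower, Tars was not called, and Yars was not tested. CACGTG was present in 4 cytosolic windows and 1 mitochondrial window against 7.2% of all promoters, CCGGAAG in 5 and 4 against 9.1%, TGCGCA in 4 and 3 against 8.1%, CCAAT in 7 and 6 against 37.9%, and TATAAA in 1 and 2 against 14.2%. The median GC content of the members' windows was 57.7% against 52.7% over all promoters. A match describes letters in a window and was not tested for binding.

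The RNA values are RPKM, reads divided by exon length and by the library's total, so each is a share of that total, and in pooled cells fewer cells with a message and less message per cell cannot be told apart. The libraries were deep: with an exon length fitted for each member, all values of the 36 members were whole multiples of 1 read within 0.1, at totals of 99369414 to 198298062 reads. The label of oocyte held in every library. The 14 oocyte markers (Zp3, Gdf9 and others) summed to 3118 to 4068 RPKM in growing oocytes and 2904 RPKM in GV oocytes, with none at 0. The sum of 14 granulosa cell markers was 2.25 and 2.65 RPKM at 10–30 μm and 8.15 and 7.47 RPKM at 60–65 μm, and 11 of the 14 had both 60–65 μm values above both 10–30 μm values. They were led by Nr5a2 and Cyp19a1, Inha went from 0.136 and 0.2004 to 0.542 and 0.528 RPKM, Kitl from 0.192 and 0.1396 to 0.495 and 0.409 RPKM and Fshr from 0.0436 and 0.0545 to 0.238 and 0.229 RPKM, while Foxl2 lay between 0.0145 and 0.0642 RPKM in all libraries. Blood and endothelium markers summed to 0.859 and 0.925 RPKM at 10–30 μm and 5.14 and 4.81 RPKM at 60–65 μm, almost all from Pecam1 with Ptprc at 0.00823 RPKM or less, and theca and stroma markers to 3.98 and 2.89 RPKM and then 1.28 and 1.22 RPKM, with 1 or 2 of 10 at 0 at 10–30 μm. Of these 10 markers 5, collagens among them, had both 60–65 μm values below both 10–30 μm values and 4 above (Cyp11a1, Cyp17a1, Star and Lhcgr), and of 8 blood and endothelium markers 2 were below and 4 above. Over the 10518 genes tested below, which leave out most of these low markers, 40.2% were above in this way and 41.9% below. The part of other cells in the changes below was not tested.

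The synthetase genes covered a range of levels that the 2 compartments shared only in part. The highest means over the 8 libraries of growing oocytes, all cytosolic, were those of Farsb, the β subunit of the phenylalanyl enzyme, at 18.7 ± 3.08 RPKM (SD, n = 8), of Iars, the isoleucyl enzyme, at 17.95 ± 5.88 RPKM, and of Nars, the asparaginyl enzyme, at 17.1 ± 2.03 RPKM. The lowest cytosolic means were those of Aars (alanyl) at 3.69 RPKM, Vars (valyl) at 1.34 RPKM and Yars (tyrosyl) at 0.173 RPKM. Among the mitochondrial genes Fars2 (phenylalanyl) was highest at 7.33 ± 1.28 RPKM, followed by Rars2 (arginyl) at 2.97 ± 0.262 RPKM if Lars2 (leucyl) is set aside, whose mean of 7.29 RPKM came from 1 library while its median was 0.548 RPKM. Nars2 (asparaginyl) at 0.638 RPKM, Wars2 (tryptophanyl) at 0.344 RPKM and Hars2 (histidyl) at 0.329 RPKM had the lowest means of the mitochondrial genes. By median, Lars2 at 0.548 RPKM lay below Nars2 at 0.574 RPKM. The median cytosolic gene stood at 9.33 and 9.46 RPKM in the 10–30 μm libraries and the median mitochondrial gene at 1.15 and 1.59 RPKM. The exon length that made all values of a member whole equalled the merged length of all exons in GENCODE M21 in 15 members (8885 bases for Iars2, 5272 for Iars) and differed in the others (1987 bases for Hars, 4850 for Eprs), so the annotation behind the RPKM values was not identified. A long merged length lowers the level of a gene whose message is shorter, so levels are compared between genes only with that reserve.

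**Figure D1:**
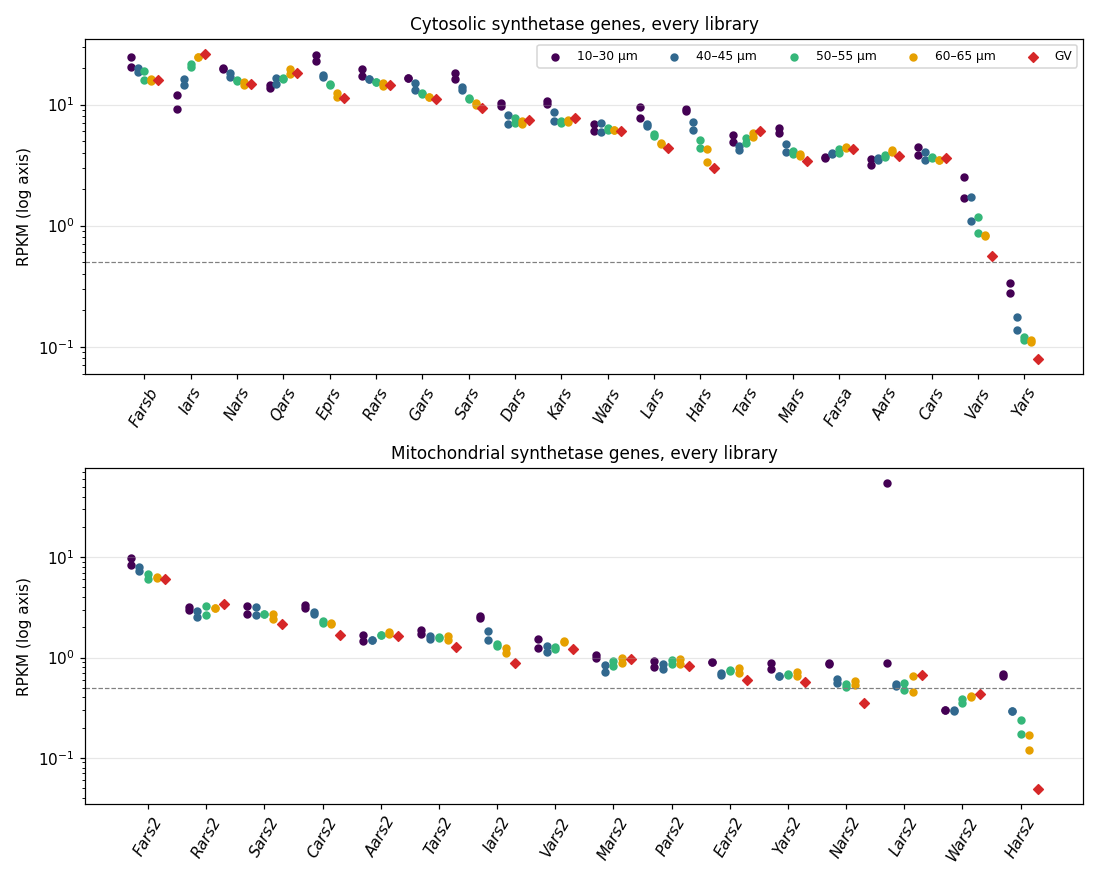
RPKM on a log axis of every synthetase gene in every RNA library, cytosolic genes above and mitochondrial genes below, ordered by their median over the growing oocytes. Points are single libraries coloured by size class, diamonds are the single GV library, and the dashed line is the 0.5 RPKM used to choose genes for the test. Lars2 has 1 point at 54.2 RPKM in a 10–30 μm library, and all its others lie between 0.458 and 0.889 RPKM.

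All 36 members together rested on 42 to 33456 reads per gene and library, so counting error was small for most of them. The test across growth used the 34 members that reached 0.5 RPKM in at least 2 of the 8 libraries of growing oocytes. Yars and Wars2 did not and were not tested. Hars2 passed only through its 10–30 μm libraries, so its fall was built into its selection and its values are given as a description.

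Over the whole of growth, from 10–30 to 60–65 μm, more members fell than rose. Of 19 cytosolic members tested, 4 rose and 12 fell, and of 15 mitochondrial members 0 rose and 5 fell (limma, adjusted p under 0.05 over all genes tested). Without Hars2, 4 of 14 fell. Over the 10518 genes tested, 31.5% were called higher and 31.8% lower, so the 12 of 19 cytosolic falls exceeded the share of all genes, and the 5 of 15 mitochondrial falls were close to it. The median log2 change was -0.49 over the cytosolic members tested and -0.23 over the mitochondrial ones, beside 0.00 over all genes tested. The sum over the 20 cytosolic genes was 216 and 209 RPKM at 10–30 μm and 175 and 174 RPKM at 60–65 μm, and that over the mitochondrial genes without Lars2 was 31.2 and 30.8 RPKM and then 23.9 and 24.9 RPKM. Among the members tested, the 2 libraries of a class did not overlap with those of the other in 4 cytosolic members that were higher and 13 that were lower, and in 1 and 11 mitochondrial members, where 40.2% of all genes tested did not overlap and were higher and 41.9% lower. The libraries of the untested Yars (lower) and Wars2 (higher) did not overlap either.

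**Figure D2:**
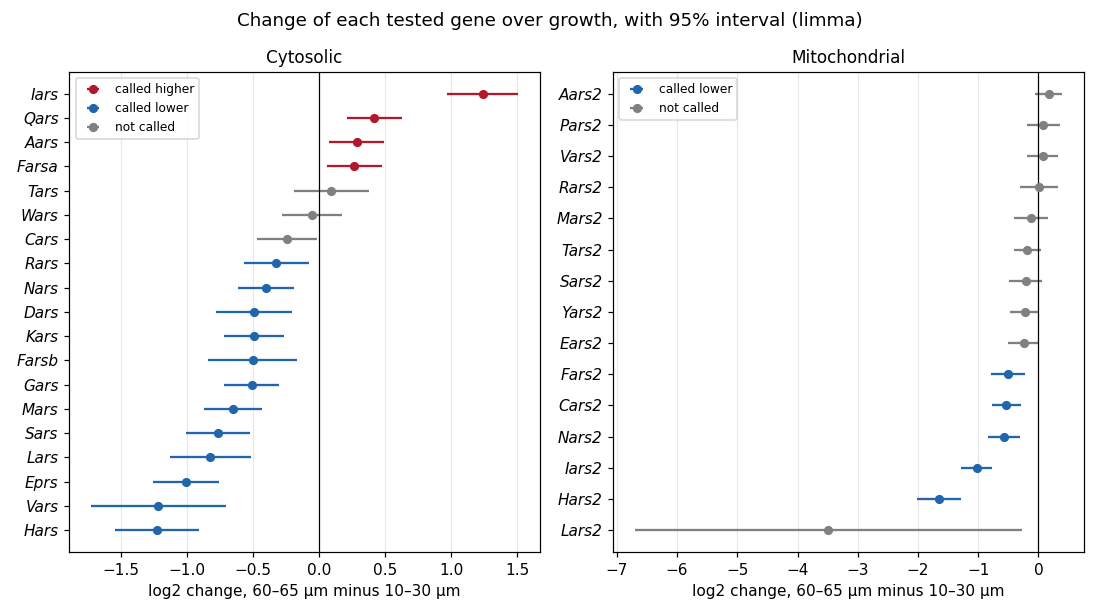
Log2 change of RPKM from 10–30 to 60–65 μm oocytes for the 34 members tested, cytosolic on the left and mitochondrial on the right, with bars for the 95% interval from limma. Colours mark members called higher, called lower or not called (Hars2 was tested only because its 10–30 μm libraries are high), and the horizontal scales of the 2 panels differ. Iars stands alone at +1.24, the most negative cytosolic values are those of Hars and Vars, and Lars2 has an interval from -6.70 to -0.28.

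Iars, the isoleucyl-tRNA synthetase and a member of the multisynthetase complex (chr13:49682100-49734267, plus strand), was the member that rose most. It stood at 9.11 and 12.03 RPKM in the 10–30 μm libraries, 14.4 and 16.4 RPKM at 40–45 μm, 20.5 and 21.7 RPKM at 50–55 μm, 24.7 and 24.8 RPKM at 60–65 μm and 26.1 RPKM in GV oocytes. No class overlapped with the next, and every library lay above those of the smaller oocytes. The log2 change over growth was +1.24 ± 0.12 (SE), a 2.36-fold rise (adjusted p = 5.10e-05). Its values were the highest of the 36 genes in all libraries of 50–55 and 60–65 μm and in GV oocytes.

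Qars, Aars and Farsa rose by far less. Qars, the glutaminyl enzyme of the same complex, had 13.6 and 14.5 RPKM at 10–30 μm and 19.7 and 17.9 RPKM at 60–65 μm, a log2 change of +0.42 ± 0.09 (adjusted p = 0.00396). Aars, the alanyl enzyme, had 3.17 and 3.57 RPKM and then 4.03 and 4.21 RPKM (+0.29 ± 0.09, adjusted p = 0.023). Farsa, the α subunit of the phenylalanyl enzyme, went from 3.65 and 3.67 RPKM to 4.46 and 4.39 RPKM (+0.27 ± 0.09, adjusted p = 0.0308). The groups did not overlap in any of the 3 genes. The call of Aars was lost without 10–30 μm library A or either 60–65 μm library, and that of Farsa without 10–30 μm library B or any library of 50–55 or 60–65 μm. Of the exon length of Aars in GENCODE M21 14.3% is shared with Exosc6 on the same strand. Farsb, whose product pairs with that of Farsa in 1 enzyme, was called lower, from 24.8 and 20.3 RPKM to 16.1 and 15.5 RPKM (-0.50 ± 0.15, adjusted p = 0.0163), a call lost without 10–30 μm library A (-0.32) and without either 60–65 μm library.

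The largest falls among the cytosolic members were those of Hars, Vars and Eprs. Hars, the histidyl enzyme, was at 8.83 and 9.18 RPKM at 10–30 μm, 6.14 and 7.23 RPKM at 40–45 μm, 4.38 and 5.13 RPKM at 50–55 μm and 3.37 and 4.28 RPKM at 60–65 μm, and each class lay below the one before without overlap. Its log2 change was -1.22 ± 0.14, a 2.33-fold fall (adjusted p = 0.000128). Vars, the valyl enzyme (chr17:35000987-35016322, plus strand), went from 1.698 and 2.502 RPKM through 1.09 and 1.72 RPKM and 0.861 and 1.17 RPKM to 0.827 and 0.833 RPKM (-1.21 ± 0.22, adjusted p = 0.00165). Its replicates spread more than those of most members, and library A was the lower in every class. Eprs, the glutamyl-prolyl enzyme and a large subunit of the complex (chr1:185363095-185428355, plus strand), fell 2.005-fold, from 25.8 and 22.9 RPKM, the highest cytosolic values of both libraries at that size, through 16.99 and 17.6 RPKM and 14.5 and 14.7 RPKM to 11.6 and 12.5 RPKM (-1.003 ± 0.11, adjusted p = 0.000102). All 4 classes of Eprs were separate.

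Lars and Sars came next. Lars, the leucyl enzyme and also a leucine sensor of the growth pathway of mTORC1, had 9.55 and 7.68 RPKM at 10–30 μm, 6.96 and 6.69 RPKM at 40–45 μm, 5.69 and 5.502 RPKM at 50–55 μm and 4.85 and 4.75 RPKM at 60–65 μm (-0.82 ± 0.13, adjusted p = 0.000868). Sars, the seryl enzyme, had 18.3 and 16.4, then 13.2 and 13.9, then 11.01 and 11.2 and finally 9.95 and 10.3 RPKM over the same classes (-0.77 ± 0.11, adjusted p = 0.000362). For both genes every class lay below the preceding one. Smaller falls were called for Mars (methionyl) at -0.65 ± 0.09, Gars at -0.51 ± 0.09, Kars at -0.49 ± 0.10, Dars (aspartyl) at -0.49 ± 0.13, Nars at -0.40 ± 0.09 and Rars (arginyl) at -0.32 ± 0.11, all with 10–30 μm libraries above both 60–65 μm libraries. Their adjusted p-values ran from 0.000484 for Mars to 0.028 for Rars, and the Rars call was lost without any 1 of 5 libraries (10–30 μm A, without which its log2 change was -0.205, and both libraries at 50–55 and 60–65 μm), that of Dars and that of Nars without 60–65 μm library A.

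Cars, Tars and Wars were not called. Cars (cysteinyl) had 3.81 and 4.44 RPKM at 10–30 μm and 3.46 and 3.47 RPKM at 60–65 μm (-0.24 ± 0.10, adjusted p = 0.0621), which do not overlap. Tars (threonyl) had 5.63 and 4.87 RPKM and 5.82 and 5.37 RPKM, with a 95% interval of the log2 change of -0.19 to 0.38. Wars (tryptophanyl) had 6.03 and 6.87 RPKM and 6.19 and 6.22 RPKM, with an interval of -0.28 to 0.18. The untested Yars was listed at 0.279 and 0.333 RPKM at 10–30 μm, 0.138 and 0.174 RPKM at 40–45 μm, 0.114 and 0.121 RPKM at 50–55 μm and 0.109 and 0.113 RPKM at 60–65 μm, from 68 to 315 reads a library, and without the filter on low values it was called lower.

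The complex and the enzyme classes gave mixed directions within each group. Of the 11 genes of the multisynthetase complex, 8 enzymes and 3 scaffold proteins, 2 were called higher (Iars and Qars) and 7 lower (Eprs, Lars, Mars, Rars, Kars, Dars and the scaffold Aimp1), with a median log2 change of -0.49, beside 31.5% higher, 31.8% lower and a median of 0.00 over all genes tested. Aimp1 stood at 8.099 and 6.87 RPKM at 10–30 μm and 4.55 and 4.86 RPKM at 60–65 μm (-0.65 ± 0.13, adjusted p = 0.00212), the scaffold Aimp2 at 7.06 and 6.700 and 6.998 and 6.895 RPKM (+0.02 ± 0.10, adjusted p = 0.904), and Eef1e1 at 23.9 and 18.5 and 15.7 and 15.3 RPKM (-0.44 ± 0.18, adjusted p = 0.0607). The summed level of the 11 genes was 143 and 133 RPKM at 10–30 μm and 121 and 120 RPKM at 60–65 μm. Class I enzymes, which share 1 fold of the catalytic domain, had 2 genes higher and 5 lower of 9 tested, and class II enzymes, which share another, 2 higher and 7 lower of 10, beside the same shares of all genes. The sum over class I was 95.2 and 94.9 RPKM at 10–30 μm and 90.4 and 88.8 RPKM at 60–65 μm, and that over class II 121 and 115 RPKM and then 84.2 and 85.6 RPKM.

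Among the mitochondrial members Hars2 and Iars2 had the most negative changes of those called. Hars2, the histidyl enzyme, had 0.654 and 0.683 RPKM at 10–30 μm, 0.296 and 0.294 RPKM at 40–45 μm, 0.173 and 0.2404 RPKM at 50–55 μm and 0.1200 and 0.169 RPKM at 60–65 μm, from 54 to 465 reads (-1.65 ± 0.16). Its selection fixed this direction, so no p-value is given. Without either 10–30 μm library it no longer passed the filter and was not tested. Hars and Hars2 lie head to head on chromosome 18 with 195 exon bases in common on opposite strands, 7.97% of the exons of Hars and 4.56% of those of Hars2 in GENCODE M21, and both were lower at 60–65 μm. The libraries keep strand, but whether the counting used it is not stated. Iars2, the isoleucyl enzyme (chr1:185284726-185329396, minus strand), had 2.45 and 2.56 RPKM, 1.51 and 1.84 RPKM, 1.31 and 1.35 RPKM and 1.11 and 1.25 RPKM over the 4 classes, each below the one before (-1.03 ± 0.11, adjusted p = 0.00011). Of its exon length in GENCODE M21 22.9% overlaps Rab3gap2 on the opposite strand.

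Nars2, Cars2 and Fars2 fell less. Nars2 had 0.872 and 0.891 RPKM at 10–30 μm, then 0.605 and 0.563, 0.547 and 0.5098 and 0.585 and 0.5301 RPKM (-0.58 ± 0.12, adjusted p = 0.00264), so that the first class lay apart from all the others. Cars2, the cysteinyl enzyme, had 3.33 and 3.12, 2.82 and 2.74, 2.19 and 2.33 and 2.16 and 2.22 RPKM (-0.54 ± 0.10, adjusted p = 0.00224). Fars2, the most abundant mitochondrial member, had 9.73 and 8.28, 7.34 and 7.97, 6.76 and 6.02 and 6.29 and 6.22 RPKM (-0.51 ± 0.12, adjusted p = 0.00648). The 60–65 μm values of each of these genes lay below both 10–30 μm values. In the same annotation, exons of Fars2 and Cars2 overlap those of Nrn1 (8.72%) and Naxd (5.83%) on the opposite strand.

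The other 10 mitochondrial members tested were not called. Apart from Lars2 their log2 changes ran from -0.24 ± 0.11 for Ears2 (glutamyl, adjusted p = 0.0848) to +0.17 ± 0.10 for Aars2 (alanyl, adjusted p = 0.155). Rars2 had 3.22 and 2.94 RPKM at 10–30 μm and 3.08 and 3.102 RPKM at 60–65 μm, with an interval of the log2 change of -0.31 to 0.33, and Sars2 (seryl) had 2.71 and 3.27 and 2.42 and 2.69 RPKM, with -0.48 to 0.05. The untested Wars2 was listed at 0.2996 and 0.3004 RPKM at 10–30 μm, 0.303 and 0.294 RPKM, 0.389 and 0.355 RPKM and 0.4095 and 0.401 RPKM at 60–65 μm, and without the filter it was called higher, the only mitochondrial member so called.

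Lars2, the mitochondrial leucyl enzyme (chr9:123366940-123462664, plus strand), stood apart because of a single library. It had 0.889 and 54.2 RPKM in 10–30 μm libraries A and B, the second from 33456 reads, against 0.539 and 0.517 RPKM at 40–45 μm, 0.557 and 0.4701 RPKM at 50–55 μm, 0.458 and 0.654 RPKM at 60–65 μm and 0.669 RPKM in GV oocytes, from 187 to 515 reads in those libraries and library A. This difference between the A and B libraries of a class, 5.69 on the log2 scale, was the largest of all genes tested in that class, and the next was 2.38. The log2 change over growth was -3.49 ± 1.40 (adjusted p = 0.0564). It was -0.66 without 10–30 μm library B and -6.35 without library A, each resting on 1 library at that size. The last exon of Lars2, at chr9:123461499-123462664, is 1166 bases long, and bases 293 to 1089 of it aligned with 77.1% to 98.8% identity to 62 other places of the genome on 23 sequences (BLASTN, E value up to 1e-10). The authors kept 1 location per read, and the part of those copies in the value was not tested.

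Between neighbouring classes most calls fell in the first step. From 10–30 to 40–45 μm, 1 member was called higher, Iars (+0.62 ± 0.12, adjusted p = 0.00863), and 5 lower, namely Hars2 (-0.91 ± 0.16, a direction fixed by its selection), Iars2 (-0.50 ± 0.11, adjusted p = 0.0172), Nars2 (-0.46 ± 0.12, 0.0245), Eprs (-0.42 ± 0.11, 0.0281) and Mars (-0.40 ± 0.09, 0.0203). Over all genes 13.2% were called higher and 9.76% lower in that step, so 1 of 34 higher was under the share of all genes and 5 of 34 lower was near it. From 40–45 to 50–55 μm 0 members were called, where 5.27% of all genes were higher and 3.45% lower, although 10 of 34 members, against 28.8% of all genes, had an unadjusted limma p under 0.05, the largest changes being Hars at -0.52 ± 0.14 (adjusted p = 0.0539) and Iars at +0.41 ± 0.12 (adjusted p = 0.0636). From 50–55 to 60–65 μm 0 members and 0% of all genes were called in either direction, and Eprs (-0.30 ± 0.11) and Hars (-0.34 ± 0.14) had an unadjusted p under 0.05, as had 13.7% of all genes. Without 10–30 μm library A none of these 5 falls was called in the first step (Hars2 was then not tested), and Lars2, which then rests on library B, was called lower. Without 40–45 μm library A only the fall of Hars2 was called. Among the fits that left out 1 library, the call of Eprs held only without 10–30 μm library B. With the letters A and B as a replicate block, Hars, Kars and Vars were also called lower in the first step, and in the second Hars was called lower (adjusted p = 0.016) and Iars higher (adjusted p = 0.0239). In the second step, Iars was called higher and Hars, Lars and Sars lower when either 10–30 μm library was left out, and Cars2 too without library A. The class mean was lower after each of the 3 steps in 13 of 20 cytosolic members (Eprs, Hars, Lars, Sars and Vars among them) and 6 of 16 mitochondrial members (Iars2 among them), and higher after each in 4 and 0. Over all genes tested these shares were 28.1% lower and 29.9% higher.

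**Figure D3:**
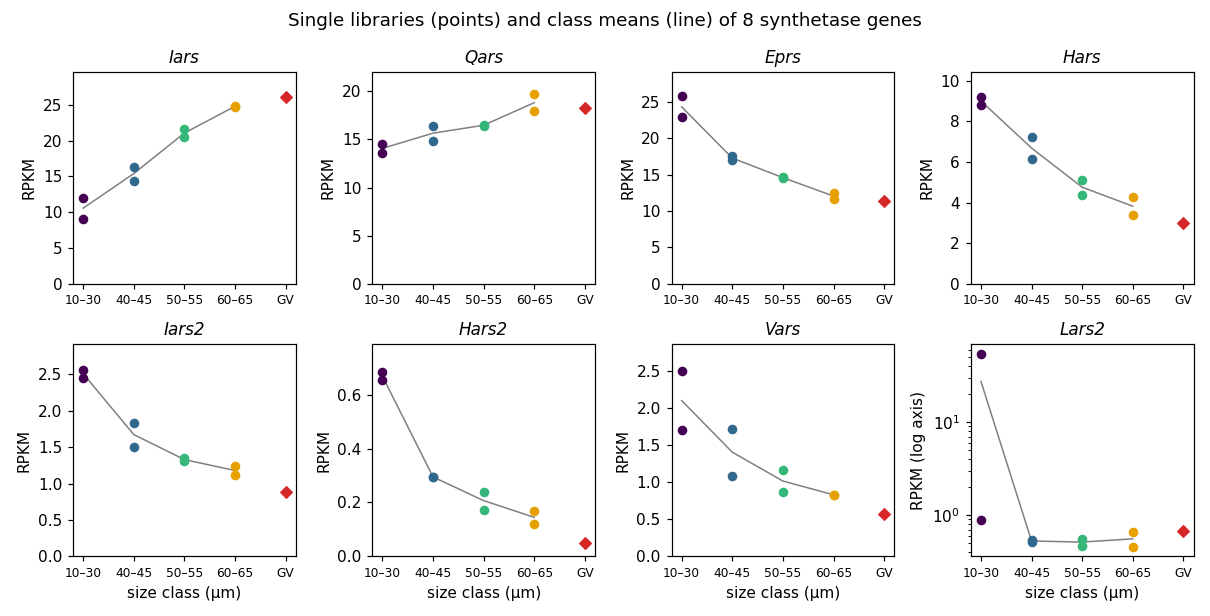
RPKM of 8 members in each library by size class, with points for single libraries, a line through the class means of growing oocytes and a diamond for the single GV library. Axes start at 0 except for Lars2, which has a log axis. Iars climbs from 9.11 and 12.03 to 24.7 and 24.8 RPKM, while Eprs, Hars, Iars2, Hars2 and Vars decline, and Lars2 is high in 1 library.

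Set against each other, the cytosolic and mitochondrial genes for the same amino acid did not keep their ratio in several pairs. The change of a ratio over growth does not depend on exon lengths, and the ratios below are a description with no test. Pairs were matched by symbol, with Farsa set beside Fars2, so Farsb entered no pair. Eprs, which serves the same amino acids as Ears2 (glutamyl) and Pars2 (prolyl), was not paired with them either. Over growth Eprs was called lower while Ears2 and Pars2 were not called. Iars over Iars2 was 3.71 and 4.69 at 10–30 μm, 9.56 and 8.92 at 40–45 μm, 15.7 and 16.03 at 50–55 μm, 22.3 and 19.9 at 60–65 μm and 29.5 in GV oocytes, each class above the one before. Hars over Hars2 went from 13.5 and 13.4 to 28.04 and 25.3, and to 60.04 in GV oocytes, although both genes were lower at 60–65 μm. Vars over Vars2 crossed 1, from 1.38 and 1.64 at 10–30 μm to 0.565 and 0.583 at 60–65 μm, as Vars fell while Vars2 had 1.23 and 1.53 RPKM and then 1.46 and 1.43 RPKM. Yars over Yars2 went from 0.361 and 0.381 to 0.165 and 0.160, and Farsa over Fars2 from 0.375 and 0.444 to 0.709 and 0.705. That rise holds for the Farsa subunit only, since Farsb and Fars2 had log2 changes of -0.50 and -0.51. Farsb, at 15.5 to 24.8 RPKM, lay above Fars2, at 6.02 to 9.73 RPKM, in all growing oocytes. The counts of pairs below use Farsa. Aars over Aars2 lay between 2.15 and 2.40 in all growing oocytes. In all, the mean ratio was higher at 60–65 than at 10–30 μm in 8 of 14 pairs and lower in 6. Without 10–30 μm library B, in which Lars2 stood apart, it was higher in 7 and lower in 7, the Lars pair going from 10.7 to a mean of 8.92. All libraries counted, the cytosolic gene was the higher in every growing library in 10 pairs. The summed cytosolic level was 6.93 and 6.79 times the mitochondrial sum without Lars2 at 10–30 μm and 7.29 and 6.996 times at 60–65 μm.

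**Figure D4:**
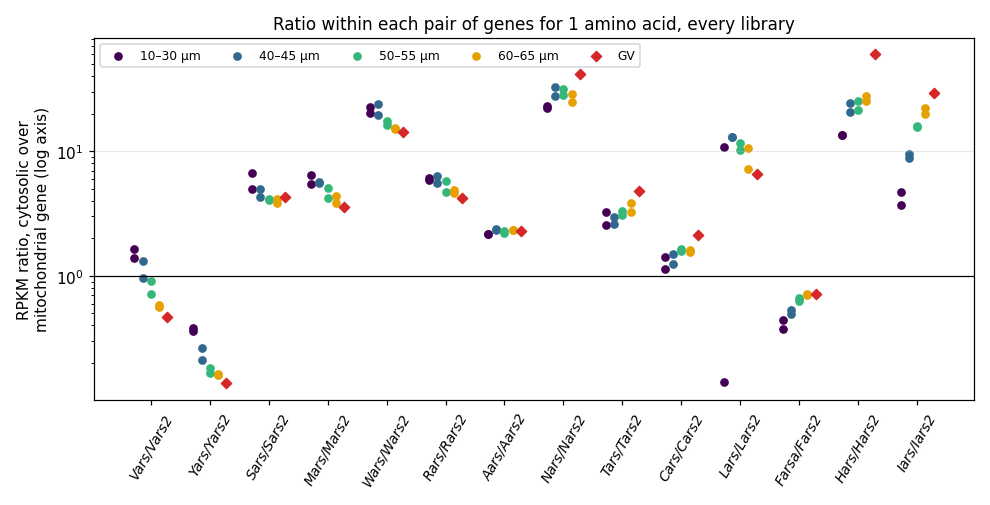
Ratio of cytosolic to mitochondrial RPKM on a log axis for 14 pairs of genes for the same amino acid, with a point for each library by size class and a diamond for the single GV library. Farsa stands for the cytosolic phenylalanyl enzyme, and Eprs, Ears2 and Pars2 are not paired. The line marks a ratio of 1. Iars over Iars2 rises through all classes to 29.5 in GV oocytes, Vars over Vars2 passes from above to below 1, and the low point of Lars over Lars2 (0.142) is 10–30 μm library B.

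GV oocytes were measured in 1 library, so these values have no replicate check. The highest ratios to the mean at 60–65 μm were those of Lars2 at 1.203, Rars2 at 1.098, Tars at 1.08, Kars at 1.06 and Wars2 at 1.06, and Iars, at 26.1 RPKM, was at 1.05 times its mean. The lowest ratio was that of Hars2, at 0.0495 RPKM from 42 reads and 0.342 times its 60–65 μm mean, followed by Nars2 at 0.631, Vars at 0.682, Yars at 0.7099, Iars2 at 0.7495, Cars2 at 0.769 and Hars at 0.778. All of these 7 genes were also lower at 60–65 than at 10–30 μm in both libraries. The cytosolic sum in GV oocytes was 172 RPKM and the mitochondrial sum without Lars2 22.04 RPKM.

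The bodies of most synthetase genes carried DNA methylation at 60–65 μm, while their starts carried little. The values are mean percent methylated over CpG positions with at least 5 reads, and they are a description with no test. In the PBAT library the median gene body was 44.6% over the 20 cytosolic members and 38.8% over the 16 mitochondrial members, beside 30.2% over all genes tested for RNA. Kars had the highest cytosolic value at 70.5% (114 positions), followed by Wars at 68.2% and Lars at 67.4%, and the lowest were Qars at 15.5% (80 positions), Vars at 17.3% and Dars at 19.6%. Sars2 led the mitochondrial members at 69.8% (136 positions), and Mars2 at 3.04% (103 positions) and Yars2 at 4.04% were lowest. Iars and Iars2, whose RNA went opposite ways, had bodies at 44.3% and 50.9%, and Eprs and Hars, which both fell, at 39.2% and 42.8%.

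In RRBS the median over bodies was higher in each larger class, though not in every member or under every coverage minimum. The median over cytosolic bodies was 1.18% ± 0.25 (SD of the libraries' medians, n = 2) at 40–45 μm, then 5.48% ± 0.11 and finally, in 60–65 μm oocytes, 11.3% ± 2.71, and over mitochondrial bodies 1.59% ± 0.49, 6.61% ± 2.28 and 12.7% ± 0.65. Over all genes tested the medians were 1.04% and 0.81%, then 2.52% and 3.19%, then 4.52% and 5.09% in libraries A and B. The class means of the medians over members were further apart than the 2 libraries of any class. Of 26 members with a value in all 6 libraries, 18 had a higher mean in each larger class, beside 61.6% of 6928 genes tested with such values, and Dars and Eprs were lower at 60–65 than at 40–45 μm. With a minimum of 1 read in place of 5, 50–55 μm library A had medians of 29.4% over cytosolic and 26.4% over mitochondrial bodies, above both 60–65 μm libraries (15.6% and 11.1%, and 15.8% and 14.9%), while library B, at 10.4% and 8.88%, lay below both. Tars went from 2.50% and 1.37% at 40–45 μm to 27.4% and 11.9% in the next class, then to 52.6% and 39.6%, and Wars from 2.63% and 1.60% to 20.4% and 15.5% and then 45.1% and 41.9%. Sars2 went from 1.87% and 1.24% to 16.8% and 17.3% and to 29.3% and 29.5%. Iars2 was already at 11.6% and 14.3% at 40–45 μm, the highest member in both libraries of that class, and reached 24.6% and 36.9%. Eprs had 0.60% and 0.22% in the 40–45 μm libraries, 0.48% and 4.35% in the next class, and 0.26% and 0.43% in the largest, over 23 to 48 positions, where PBAT, which covers the whole body, gave 39.2% over 210 positions. RRBS reads mostly GC-rich DNA, so it samples other positions of a gene than PBAT does.

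Gene starts, within 500 bases on each side, had medians of 3.29% over cytosolic and 3.20% over mitochondrial members in PBAT, against 3.20% over all genes tested. Tars was the highest at 26.8%, over 17 positions and 105 calls, but it was at 12.8%, beside Aars at 12.75% and Sars at 12.1%, with a minimum of 1 read, and had no position with 10 reads. Its start in RRBS was at 0.85% and 1.68% at 40–45 μm, 16.4% and 3.89% in the next class, and 11.4% and 15.2% in the largest, higher in all 4 later libraries than in both early ones, and it was the highest cytosolic start in both 60–65 μm libraries. Its RNA was not called over growth. Sars had 10.99% at its start in PBAT (16 positions, 104 calls) but 0.42% and 0.53% in RRBS at 60–65 μm over 9 positions. The medians over starts in RRBS were between 0.27% and 0.62% in every class and compartment. The PBAT library held 3.36 calls per CpG position on average and the RRBS libraries 22.9 to 58.9, so single starts in PBAT rest on few reads.

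**Figure D5:**
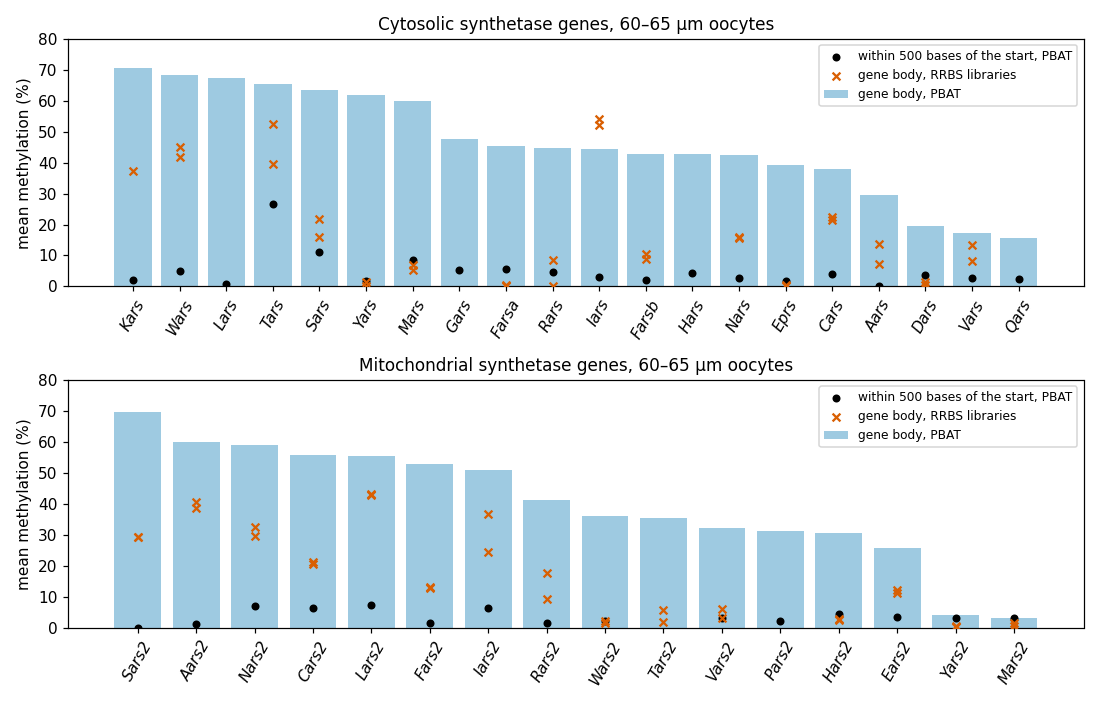
Mean percent methylation at 60–65 μm of cytosolic members (above) and mitochondrial members (below), ordered by their value in PBAT. Bars are gene bodies in the single PBAT library, crosses are gene bodies in the 2 RRBS libraries where at least 10 positions were covered, and dots are the 500 bases on each side of the start in PBAT. Bodies range from 3.04% to 70.5%, and the start of Tars at 26.8% is above all other starts.

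Genes that work beside the synthetases also moved, from lists that were chosen with earlier results of these data known. Of the 13 cytosolic synthetases known as ATF4 targets, 12 were tested, 2 rose (Iars and Aars) and 7 fell, with a median log2 change of -0.45, beside the 31.5% higher and 31.8% lower over all genes. Of 22 other ATF4 targets 16 were tested, 8 rose and 4 fell, with a median of +0.17, and 6 and 2 of the 12 that reached 0.5 RPKM in both end classes, where 29.5% of all such genes were called higher and 30.6% lower. Atf4 itself, measured as RNA although its control is largely in translation, went from 16.9 and 16.4 RPKM at 10–30 μm to 34.1 and 32.7 RPKM at 60–65 μm (+1.000 ± 0.11, adjusted p = 9.29e-05). The largest changes were in Eif4ebp1, an inhibitor of translation initiation, from 7.32 and 7.700 to 1.06 and 1.36 RPKM (-2.54 ± 0.23), in Cth, which makes cysteine from cystathionine, from 0.133 and 0.0945 to 0.761 and 0.743 RPKM (+1.99 ± 0.21), and in Asns, the asparagine synthetase, from 1.09 and 1.06 to 0.323 and 0.396 RPKM (-1.36 ± 0.15). Cth reached 0.5 RPKM only at 60–65 μm and Asns only in the 2 smaller classes, so these directions were built into their selection. Neither list moved 1 way.

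Elongation factor 1, which takes charged transfer RNA from the synthetases to the ribosome, had 3 of 4 genes called lower and 0 higher. Eef1g, a subunit of the exchange factor, went from 8.76 and 8.07 RPKM to 3.87 and 4.099 RPKM (-1.06 ± 0.10, adjusted p = 5.46e-05), Eef1a1, the carrier itself, from 390.3 and 333 to 176 and 186 RPKM (-0.99 ± 0.13), and Eef1b2, another exchange subunit, from 15.5 and 12.3 to 7.25 and 6.998 RPKM (-0.94 ± 0.16). In the mitochondrion 5 of 9 translation factors were called lower and 0 higher, led by the initiation factor Mtif2 (-1.50 ± 0.11), the release factor Mtrf1l (-0.81 ± 0.13) and the ribosome recycling factor Mrrf (-0.49 ± 0.13). Of 3 further genes tested for charging mitochondrial transfer RNA, 1 was called lower, near the 31.8% of all genes called lower. It was Qrsl1, a subunit of the amidotransferase that makes glutaminyl-tRNA there (-0.90 ± 0.11, adjusted p = 0.00017).

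Genes acting on transfer RNA itself moved in both directions. Of 8 synthetase-related genes tested 2 rose and 2 fell, among them Dtd1, which removes D-amino acids from transfer RNA, from 1.56 and 1.18 to 0.356 and 0.374 RPKM (-1.64 ± 0.16), and Sepsecs, which makes selenocysteinyl-tRNA, from 1.36 and 1.43 to 2.84 and 2.41 RPKM (+0.87 ± 0.12). This list shares Aimp1, Aimp2 and Eef1e1 with the multisynthetase complex, and its other fall is that of Aimp1 given above. Of 34 genes of transfer RNA processing and modification tested 4 rose and 14 fell, with a median of -0.22. Dtd1 reached 0.5 RPKM only in the 2 smaller classes and Tsen15 only at 10–30 μm, which fixed their directions, and without them 1 of 7 and 13 of 33 fell. The largest changes were those of Xpot, the exporter of transfer RNA from the nucleus (-1.14 ± 0.11), of the splicing endonuclease subunit Tsen15 (-1.13 ± 0.14) and of Qtrtd1, a subunit of the enzyme that inserts queuine (+1.07 ± 0.14). Beside the 31.8% of all genes called lower, the shares of elongation factor 1 and of mitochondrial factors that fell were larger while of transfer RNA processing 14 of 34 were lower, and its 4 of 34 higher were under the 31.5% of all genes.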

How the data were processed

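Strand-specific RNA-seq libraries of growing and GV oocytes and bisulphite libraries of growing oocytes were analysed, grouped by the sample labels. Per the labels and methods the authors trimmed reads with Trim Galore (versions 0.2.8 and 0.3.5 are listed), aligned RNA with TopHat2 2.0.9, keeping 1 location per read, and aligned bisulphite reads with Bismark (0.14.0 and 0.10.0 are listed) to GRCm38. The RNA table deposited by the authors holds RPKM per gene. Whether Cufflinks or SeqMonk made it, and whether strand was used, is not given in the sources used here. The deposited methylation files hold, for each cytosine, the percent methylated and the counts of methylated and unmethylated calls, not pooled, and the percent was computed again from the counts. Many low RPKM values are whole multiples of 1 read: with merged exon lengths of GENCODE M21, 71.0% to 72.6% of genes under 50 reads came out whole within 0.1, and all 36 members did over all 9 libraries with a length fitted for each (15 of them the M21 length). That share was too low for a count test.

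RPKM values were scaled by a trimmed mean of log ratios (30% of ratios and 5% of levels trimmed at each end, factors 0.950 to 1.05) and tested with limma 3.58.1 in R 4.3.3 on log2(RPKM + 0.1), which understates changes of low genes, in 1 fit of the 8 libraries of growing oocytes with a mean per class and a trend in the variance. Genes with at least 0.5 RPKM in 2 of 8 libraries were tested (10518), with Benjamini-Hochberg adjustment over all of them and a threshold of 0.05. On simulated data for 10–30 against 60–65 μm (10051 genes) this called 74 of 100 genes changed by 0.5 on the log2 scale and 100 of 100 changed by 1, with 7 false calls, and for 10–30 against 40–45 μm, with no gene changed, it made 0 calls. The simulated noise was independent between genes and libraries, its spread was set by level alone, and only these genes changed. In the data 31.5% of genes were called higher and 31.8% lower, so these rates need not hold there. The GV library entered no test. Methylation was averaged over CpG positions with at least 5 reads, with at least 10 positions in a body and 5 at a start. Motifs, overlaps and exon copies were found with Python 3.11.15 and BLAST+ 2.17.0.

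Named genes were, for each compartment, the 5 called members with the largest change over growth, the 3 highest and 3 lowest means and those called in a step, and for other lists the 3 called with the largest change. Other members and genes are named to account for all members. The family and the lists were chosen with earlier results of these data known, and members within the family by symbol. Alternatives changed the pseudocount, filter, scaling, variance trend, libraries in the fit, replicate block and coverage minimum, and left out each library in turn.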

Additional observations from a re-analysis of the deposited data

How the results depend on the processing

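Over the whole of growth, 4 cytosolic members higher, 12 lower, 0 mitochondrial members higher and 5 lower were the counts as reported, and 1 higher and 5 lower in the first step. Without the filter on low values 1 mitochondrial member was higher (Wars2) and 3 members were lower in the first step. With at least 1 RPKM required, Hars2 and Nars2 were not tested, 3 mitochondrial members were lower and 3 members were lower in the first step. Without scaling 9 members were lower in the first step. With quantile normalization 2 cytosolic members were higher, and 2 members (Hars and Hars2) were lower from 40–45 to 50–55 μm. With only the classes compared in the fit 2 cytosolic members were higher and 1 member was lower in the first step. The causes were not tested. Leaving out each library in turn gave 2 to 4 cytosolic members higher, 8 to 12 lower, 0 to 0 mitochondrial members higher and 5 to 5 lower, 1 to 6 lower in the first step, and 0 to 1 higher and 0 to 4 lower in the second step. The 5 mitochondrial calls were not always the same genes: without either 10–30 μm library Hars2 was not tested and Lars2 was called. Of the changes over the whole of growth of the 21 members called there, under 18 alternatives, 351 kept direction and call, 23 kept direction but lost the call (Aars, Farsa, Farsb, Rars, Dars and Nars), and 0 reversed. Lars2 and Cars were called in 3 alternatives each and Yars and Wars2 in 1. In the first step the call was lost by Eprs in 9 alternatives, by Nars2 in 7, by Iars2 in 4 and by Hars2 and Mars in 3 each.

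The letters A and B do not pair the libraries by any label, and the deviations of library A from the class mean correlated at 0.59 to 0.67 among the 3 smaller classes but at -0.23, -0.03 and 0.11 with 60–65 μm, across genes. With the letter as a replicate block 4 cytosolic members were higher and 13 lower (Cars gained, adjusted p = 0.0373), 0 mitochondrial members higher and 6 lower (Lars2 gained, adjusted p = 0.0304), 8 members lower in the first step, and 1 higher (Iars) and 1 lower (Hars) in the second. Calls over all genes rose too, from 3317 higher and 3345 lower to 3622 and 3658 over the whole of growth, from 1388 and 1027 to 1859 and 1471 in the first step, from 554 and 363 to 1009 and 868 in the second and from 0 and 0 to 163 and 77 in the last.

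Medians of methylation moved with the coverage minimum. With 1 read, PBAT bodies had 52.5% (cytosolic) and 45.2% (mitochondrial), RRBS bodies 1.72% and 3.0% (40–45 μm), 19.9% and 17.7% (50–55 μm) and 13.3% and 15.4% (60–65 μm), where the fall from 50–55 to 60–65 μm rests on 50–55 μm library A (29.4% and 26.4%, against 10.4% and 8.88% in library B), and cytosolic starts at 50–55 μm 0.45%, and the start of Tars in PBAT was at 12.8% in place of 26.8%. With 10 reads, cytosolic bodies had 2.83% at 50–55 μm and 8.03% at 60–65 μm, and cytosolic starts 0.83% at 40–45 μm. With pooled calls the values were 5.08% for cytosolic bodies at 50–55 μm, 10.7% for mitochondrial bodies at 60–65 μm and 0.73% for cytosolic starts at 40–45 μm. Precision is limited by 2 libraries a class and 1 in GV and PBAT, and in PBAT also by few calls per position.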
